A study of Homo sapiens with 12 samples.

Results

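The transcriptome described here is that of palatal mesenchyme cells carrying a plasmid for wild-type MSX1, measured in 3 libraries of the 12 in the study. They are the libraries whose labels name WT MSX1 overexpression in HEPM cells, a human line derived from embryonic palatal mesenchyme, collected 6 h after plasmid transfection. The other 3 plasmids of the study carry MSX1 with a changed arginine, and nothing from those cells is used. What follows is a description of levels within this group, with no comparison between groups and no test. HEPM is a cultured line, so the epithelium, vessels and nerves of a palate are not part of the sample. The share of cells that took up the plasmid is not given in the sources used here, and cells without a plasmid were not analysed here.

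The secondary palate forms from a pair of shelves that grow out of the maxillary processes, lift above the tongue and fuse at the midline. Their core is mesenchyme derived mostly from cranial neural crest, covered by epithelium, and it lays down a matrix rich in collagen, fibronectin and hyaluronan. MSX1 is a homeobox transcription factor of this mesenchyme and of the tooth bud. Loss of Msx1 in mice gives cleft palate, and in mouse palatal mesenchyme Msx1 sustains expression of the growth factor Bmp4.

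Values were TPM, a measure of transcript abundance scaled for transcript length and for the library total, so that levels of different genes can be set side by side within a library. The libraries differed with transcript GC content, as described below, so comparisons between genes of unlike GC content are less certain. TPM keep no read depth, so the depth behind each value is unknown. Values given in threes are for replicates 1, 2 and 3, and values after ± are SDs over these 3 libraries (n = 3). A gene is called detected where it had at least 1 TPM in all 3 libraries, and a value of exactly 0 is given as listed at 0. By this measure 13014 of the 63241 listed genes were detected, which is 20.6%. Among protein-coding genes of GENCODE 29 the share was 58.8% (11683 of 19855), which is the background for the counts of list members given below. The median level of a detected gene was 22.2 TPM, and 37435 genes were listed at 0 in all 3 libraries. The labels do not say whether the libraries came from separate cultures, so the spread between them may be technical.

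Replicate 2 stood apart from the other libraries. Over the detected genes Spearman's rho was 0.990 between replicates 1 and 3, 0.975 between replicates 1 and 2, and 0.957 between replicates 2 and 3, as a description across genes of the same libraries. The levels of 5.26% of detected genes differed more than 2-fold on the log2(TPM + 1) scale between replicates 2 and 3, against 0.507% between replicates 1 and 3. The difference followed the GC content of the transcript. In the fifth of genes lowest in GC, the median difference of replicate 2 from the mean of replicates 1 and 3 was 0.43 on the log2(TPM + 1) scale, and in the fifth highest in GC it was -0.56. Mitochondrially encoded transcripts took 7.55%, 9.96% and 6.36% of the TPM total, and ribosomal protein transcripts took 5.72%, 4.62% and 6.31%. Without replicate 2, 13350 genes were at or above 1 TPM in both other libraries.

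**Figure D1:**
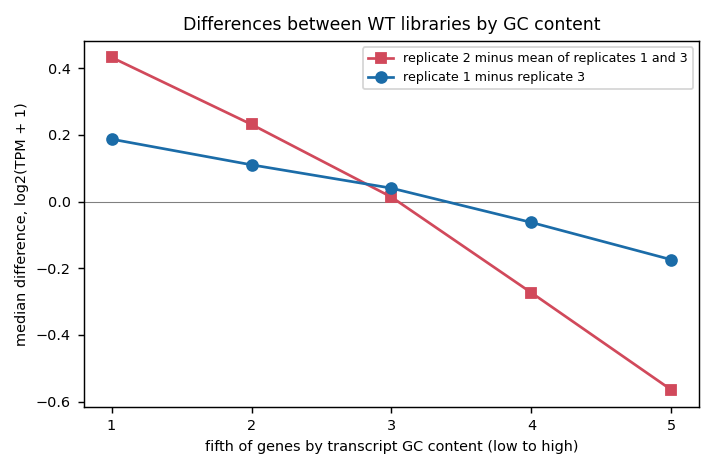
Median difference in level between libraries, as log2(TPM + 1), in 5 groups of genes ordered by transcript GC content; squares are replicate 2 minus the mean of replicates 1 and 3, and circles are replicate 1 minus replicate 3. Both lines descend with GC content, and the descent is steeper for replicate 2, which runs from 0.43 to -0.56.

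The total was concentrated in few genes. The 10 highest genes of each library held 9.67% ± 1.38 of its TPM total, the 100 highest held 27.4% ± 0.152 and the 1000 highest held 60.7% ± 0.460. Of the 100 genes with the highest mean, 14 were mitochondrially encoded, 14 belonged to a list of interferon-induced genes, 12 to a cytoskeleton list, 8 were ribosomal protein genes and 8 were matrix genes. The highest mean over the 3 libraries was that of the mitochondrial ATP synthase subunit gene MT-ATP8, at 11555, 25397 and 9956 TPM. Its value in replicate 2 was 2.36 times the mean of the other libraries, and MT-ATP8 overlaps its neighbour MT-ATP6, so the split of reads between the overlapping genes is uncertain. MT-ATP6 was at 4235, 4482 and 3763 TPM. MT-ND4L, 4th by mean, was at 8226, 19737 and 5812 TPM, with replicate 2 at 2.81 times the mean of the other libraries.

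The highest nuclear-encoded gene was B2M, the light chain of MHC class I, at 14722, 14846 and 14932 TPM (14833 ± 106). It was the highest gene of all in replicates 1 and 3, and its level hardly moved between libraries. EEF1A1, which brings aminoacyl-tRNA to the ribosome, averaged 9707 ± 709 TPM. The next nuclear-encoded genes were VIM, FN1, GAPDH and MMP1, so that a cytoskeletal protein, a matrix protein and a matrix protease of mesenchymal cells stood among glycolytic and translation genes. They were followed by ANXA2, LDHA, PKM and TMSB10, which encode a membrane-binding annexin, a pair of glycolytic enzymes and an actin-binding thymosin, at 4030 ± 503, 3798 ± 366, 3775 ± 369 and 3602 ± 1340 TPM. Of the nuclear-encoded genes, IFITM3 came next at 3415 ± 897 TPM.

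Interferon-induced genes were thus part of the most abundant transcripts. Type I interferon acts through the kinases JAK1 and TYK2 on transcription factors that bind the interferon-stimulated response element. Of 31 genes of the interferon list, 30 were detected. The median of all 31 was 871 TPM, and together the 31 took 4.66% of the total. The list includes B2M, its highest member at 14833 TPM, which weighs heavily in this share. No share without B2M was computed. IFITM1, a membrane protein that limits virus entry, was at 3215, 1683 and 4224 TPM, lowest in replicate 2. IFIT2, which binds viral RNA, was at 2308, 2359 and 2092 TPM, and HLA-B, an MHC class I heavy chain, at 2494, 1868 and 2842 TPM. IFITM family members and HLA class I genes resemble each other closely, so their single levels are uncertain. No cells without a plasmid were analysed here, so it was not tested whether these levels go with the transfection.

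Stretches upstream of the start are shown for 4 of these genes because they carry the core of the interferon-stimulated response element (GAAA, any 2 bases and GAAA, searched on both strands and with overlapping matches allowed). They come from RefSeq on GRCh38.p14 and run 5′ to 3′ on the strand of the gene, with matches in capitals. ISG15, a ubiquitin-like modifier, was chosen after its values were seen.
B2M, chr15:44711348-44711413, plus strand: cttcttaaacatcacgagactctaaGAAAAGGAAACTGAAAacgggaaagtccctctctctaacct
IFITM3, chr11:320861-320937, minus strand: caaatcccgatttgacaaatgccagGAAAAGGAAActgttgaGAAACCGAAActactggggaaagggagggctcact
IFITM1, chr11:313975-314034, plus strand: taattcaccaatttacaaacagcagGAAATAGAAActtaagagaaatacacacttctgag
ISG15, chr1:1013359-1013424, plus strand: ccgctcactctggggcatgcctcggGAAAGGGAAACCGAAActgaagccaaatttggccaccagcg
In B2M and ISG15 a pair of overlapping matches formed a longer run, in IFITM3 there were 2 separate matches and in IFITM1 there was 1. In the window from 250 bases before the start to 50 after it, the core was found in 17 of the 23 interferon-list genes that had a window. Of all 27305 genes with a window, 4.38% held it. Windows were matched for 74.2% of the interferon list, too few for a check of the whole list, which is void. A match is a description of the letters and says nothing of binding in these cells.

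All 5 mesenchymal markers were detected. They were chosen, like the other gene lists, with earlier results of these data known. The cut of 1 TPM was met by 58.8% of all protein-coding genes, so detection alone does not tell palatal mesenchyme from other mesenchymal cells. VIM, the intermediate filament of mesenchymal cells, lies on chromosome 10 at 17228259 to 17237593 of GRCh38 (GENCODE 29) and was at 7953, 6848 and 8706 TPM. FN1, the matrix glycoprotein fibronectin, lies on chromosome 2 at 215360440 to 215436172 and was at 6086, 4963 and 6093 TPM. PRRX1, a homeobox factor of limb and craniofacial mesenchyme, lies on chromosome 1 at 170662728 to 170739419 and was at 878, 941 and 803 TPM. PRRX1 ranked 139 of all listed genes and stood above 98.9% of detected genes. COL1A1, a chain of type I collagen, lies on chromosome 17 at 50183289 to 50201632 and was at 540, 553 and 582 TPM. TWIST1, a basic helix-loop-helix factor of cranial mesenchyme, lies on chromosome 7 at 19020991 to 19117672 and was at 34.0, 29.7 and 36.2 TPM. TWIST1 stood above 61.3% of detected genes, and the order VIM, FN1, PRRX1, COL1A1, TWIST1 held in every library.

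All 16 fibroblast markers were detected, with a median of 299 TPM. The highest was NT5E, the ecto-5′-nucleotidase CD73 of mesenchymal stromal cells, at 2954, 3555 and 2734 TPM, followed by COL1A2, S100A4, P4HB and MME. Of the smooth muscle and pericyte markers, 11 of 12 were detected, and the median of all 12 was 14.5 TPM. TPM2, a tropomyosin, averaged 363 ± 104 TPM, and TAGLN, an actin-bundling protein, averaged 241 ± 8.59 TPM. ACTA2, the smooth muscle actin of myofibroblasts, was lower, at 24.0, 18.0 and 27.8 TPM, and CNN1 was at 6.75, 4.07 and 6.26 TPM. MYH11, the myosin heavy chain of mature smooth muscle, was at 0.42, 0.24 and 0.15 TPM, under the detection level in every library.

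Of 12 neural crest markers 6 were detected, against 58.8% of all protein-coding genes, so the count alone says little about crest identity. ERBB3, at 1.45, 0.89 and 1.22 TPM, missed the detection level in replicate 2 alone. The endothelin receptor EDNRB was highest of them at 92.7, 148 and 75.9 TPM, followed by ETS1 (49.7 ± 6.11 TPM), SOX9 (45.7 ± 3.01 TPM), TFAP2A (23.9 ± 3.56 TPM), SNAI2 (19.1 ± 1.71 TPM) and PAX3 (8.47 ± 0.293 TPM). These factors act in crest cells or their mesenchymal derivatives. SOX10 and FOXD3, which mark early crest and glia, and TFAP2B and PAX7 were listed at 0 in all 3 libraries.

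Markers of other cell types were mostly under the detection level. Of 12 epithelial markers 5 were detected, led by the keratins KRT19 at 49.9, 28.9 and 53.1 TPM and KRT18 at 14.2, 8.94 and 14.2 TPM. The defining adhesion genes EPCAM and CDH1 averaged 0.183 and 0.0367 TPM, and GRHL2, ESRP1 and KRT5 were listed at 0 throughout. Summed over the list, epithelial markers came to 52.7 to 88.8 TPM in a library, lowest in replicate 2.

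Of 9 immune markers, CD68 (372 ± 130 TPM) and CD74 (10.2 ± 1.66 TPM) were detected. CD68 is a lysosomal protein and is not restricted to macrophages. The pan-leukocyte gene PTPRC averaged 0.0567 TPM, and LYZ, ITGAM and CD3E were listed at 0. Endothelial PECAM1 (8.46 ± 0.229 TPM) and TEK (3.36 ± 0.260 TPM) were detected, whereas CDH5 and ERG were listed at 0. TIE1, at 1.71, 0.48 and 2.49 TPM, missed the detection level in replicate 2 alone. TUBB3, a tubulin first known from neurons, was at 157.1, 112 and 190 TPM, and was the only 1 of 10 neural and glial markers detected. STMN2, NEFL and S100B were listed at 0. Of 9 skeletal and cardiac muscle markers DES alone passed, at 3.15 ± 0.627 TPM, and MYOD1, MYOG, MYF5, TNNT2 and NKX2-5 were listed at 0. These are bulk libraries, in which fewer cells of a type and less RNA per cell cannot be told apart.

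**Figure D2:**
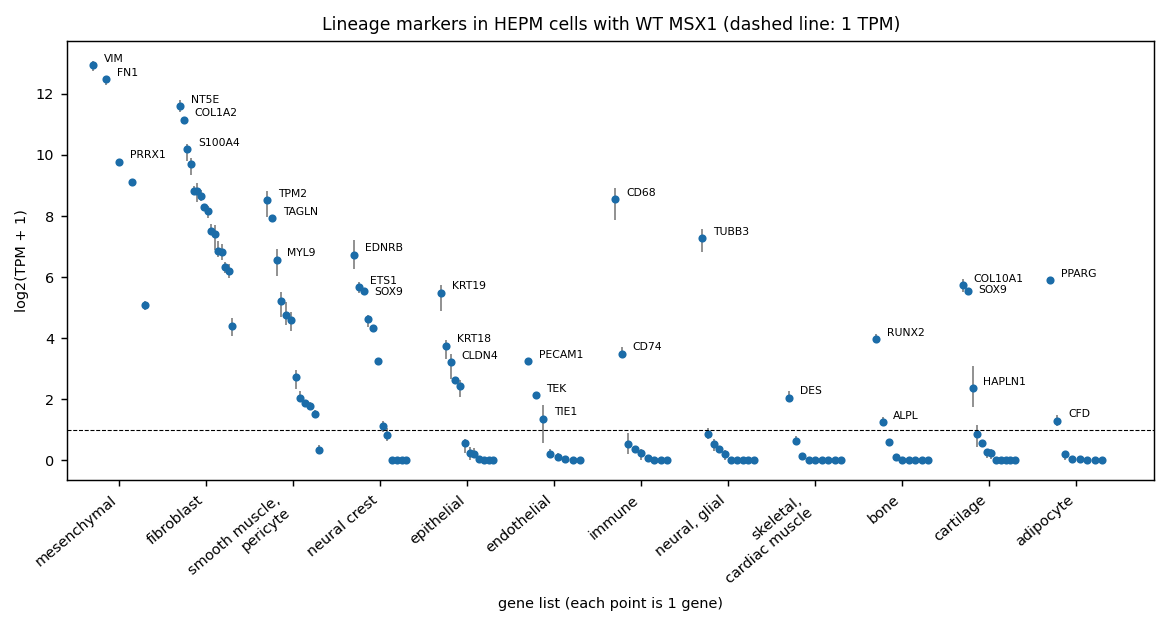
Level of each lineage marker as log2(TPM + 1), with points for the mean of the 3 libraries and vertical lines from the lowest to the highest library; genes are ordered by level within a list and the dashed line marks 1 TPM. All mesenchymal and fibroblast markers lie above the line, whereas most neural, skeletal and cardiac muscle, bone, immune and endothelial markers lie at or near 0.

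Genes of the lineages that mesenchyme can enter were present in part. RUNX2, the runt factor that commits cells to bone, was at 14.1, 16.5 and 13.2 TPM and ALPL, the alkaline phosphatase of mineralizing cells, at 1.37 ± 0.257 TPM. SP7, BGLAP, IBSP, DMP1 and MEPE, which are expressed as osteoblasts and osteocytes mature, were listed at 0. In the cartilage list SOX9 was accompanied by COL10A1, a collagen of hypertrophic cartilage, at 60.8, 45.0 and 51.2 TPM and by HAPLN1 at 2.37, 7.55 and 2.42 TPM. HAPLN1, a link protein that joins hyaluronan to proteoglycan, was highest in replicate 2. COL2A1, COL9A1, COMP and CNMD, genes of differentiated cartilage, were listed at 0. PPARG, a nuclear receptor of adipocytes and other cells, was steady at 57.9, 57.5 and 59.6 TPM, and CFD was at 1.44 ± 0.315 TPM. ADIPOQ, PLIN1 and LEP are among the 6 further adipocyte genes, none of which was detected.

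Palate transcription factors were the list closest to the purpose of the line, and 39 of 56 were detected, with 9 listed at 0. MSX1, which lies on chromosome 4 at 4859666 to 4863936, was the 2nd highest after PRRX1, at 342, 224 and 446 TPM (337 ± 111). Transcript from the plasmid and from the endogenous gene cannot be told apart in TPM per gene. It ranked 447, 746 and 336 in the libraries and averaged 394 TPM without replicate 2. MSX1 was 59.6 to 106 times as high as its paralog MSX2, which was at 4.29, 3.75 and 4.21 TPM. MSX2 varied little while MSX1 varied about 2-fold. The transcript of MSX1 has 59.9% GC, in the fifth of genes highest in GC, and its low value in replicate 2 has the direction of the GC trend.

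Below MSX1 came YAP1 (196 ± 22.8 TPM), the coactivator of the Hippo pathway, and TBX3 (183 ± 11.5 TPM), a T-box factor. ZEB1 (100 ± 14.2 TPM) and ZEB2 (54.2 ± 1.63 TPM) are zinc-finger repressors of epithelial genes. MN1, a transcriptional coregulator needed for palate growth in mice, was at 97.2, 97.2 and 102 TPM. TWIST2 was at 73.0, 53.4 and 90.1 TPM and exceeded TWIST1 in each library, by 1.80 to 2.49 times. PAX9, a paired-box factor of palate and tooth mesenchyme, was at 66.4, 76.4 and 60.9 TPM. ALX1, an aristaless-type factor of frontonasal mesenchyme, was at 60.0, 53.2 and 62.7 TPM.

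The LIM homeobox genes LHX8 and LHX6, which act in maxillary and oral mesenchyme of the mouse, stood side by side. LHX8 was at 39.8, 40.2 and 39.1 TPM and LHX6 at 38.4, 34.0 and 43.9 TPM. LHX8 was the higher of them in replicates 1 and 2 and the lower in replicate 3, so their order was not settled. FOXF1 (36.6 ± 6.22 TPM) and FOXF2 (19.6 ± 1.32 TPM) are forkhead factors downstream of hedgehog signalling in oral mesenchyme, and FOXF1 was the higher in all 3 libraries. RUNX1 was at 36.2 ± 6.90 TPM and SHOX2, a homeobox gene of the anterior palate in mice, at 23.6, 28.7 and 24.6 TPM. TFAP2A and TBX2 averaged 23.9 and 23.4 TPM, while SOX11, FOXD1 and FOXC2 lay between 17 and 19 TPM on average (18.3 ± 4.41, 17.8 ± 4.55 and 17.6 ± 3.44 TPM).

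PRRX2, a paralog of PRRX1, was the palate factor that varied most among libraries on the log2 scale. It was at 35.6, 16.9 and 49.4 TPM, against 42.5 TPM on average without replicate 2. Its transcript has 69.0% GC, compared with 41.0% for PRRX1. PRRX1 was 24.7, 55.9 and 16.3 times as high as PRRX2 in the 3 libraries, so PRRX1 was higher throughout and the size of the ratio was not stable.

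The lower part of the list held several factors known from palate development. GLI3, a zinc-finger effector of hedgehog signalling, was at 15.2 ± 1.65 TPM and GLI2 at 4.81 ± 0.412 TPM. DLX1 was at 10.9 ± 1.13 TPM and DLX2 at 2.34 ± 0.416 TPM, and DLX1 was the higher by 4.24 to 5.19 times. MEF2C and SNAI1 averaged 10.2 and 10.1 TPM. OSR2, an odd-skipped factor needed for palatal shelf growth in mice, was at 7.74, 6.49 and 10.0 TPM, its relative OSR1 at 6.05, 4.14 and 7.22 TPM, and FOXC1 at 6.74 ± 0.862 TPM. BARX1, a homeobox gene of the posterior palate in mice, was at 4.90, 3.49 and 6.77 TPM, and ALX4 at 1.05, 0.94 and 1.47 TPM. ALX4 missed the detection level in replicate 2 and SIM2, at 0.963 TPM on average, in replicates 2 and 3. TBX22 and MEOX2, factors of palatal mesenchyme, HAND2 and DLX5, DLX3 and DLX6, factors of the mandibular arch and other sites, and ISL1 and FOXE1 were among those listed at 0 in every library. Among detected palate factors, 14 of 38 pairs of neighbours kept the same order in all 3 libraries, so close ranks in this list are not distinct.

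HOX genes pattern the trunk and the posterior head, and cranial neural crest that forms the palate lacks them in the embryo. None of the 39 HOX genes was detected, and 36 were listed at 0 in all 3 libraries. The exceptions were HOXB2 at 0.23 TPM and HOXC6 at 0.06 TPM, both in replicate 3 alone, and HOXD10 at 0.06 TPM in replicate 2 alone. When every symbol of the 4 clusters was taken, antisense transcripts with HOTAIR and HOTTIP included, 52 of 55 were listed at 0 and the highest value was again 0.23 TPM. That wider set was drawn up after the values were seen. The cofactors that pair with HOX and other homeodomain proteins were present, with 7 of 9 detected. MEIS2, a cofactor gene whose loss also gives cleft palate, was at 108, 97.9 and 98.0 TPM, and PBX2 at 50.1 ± 8.53 TPM.

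**Figure D3:**
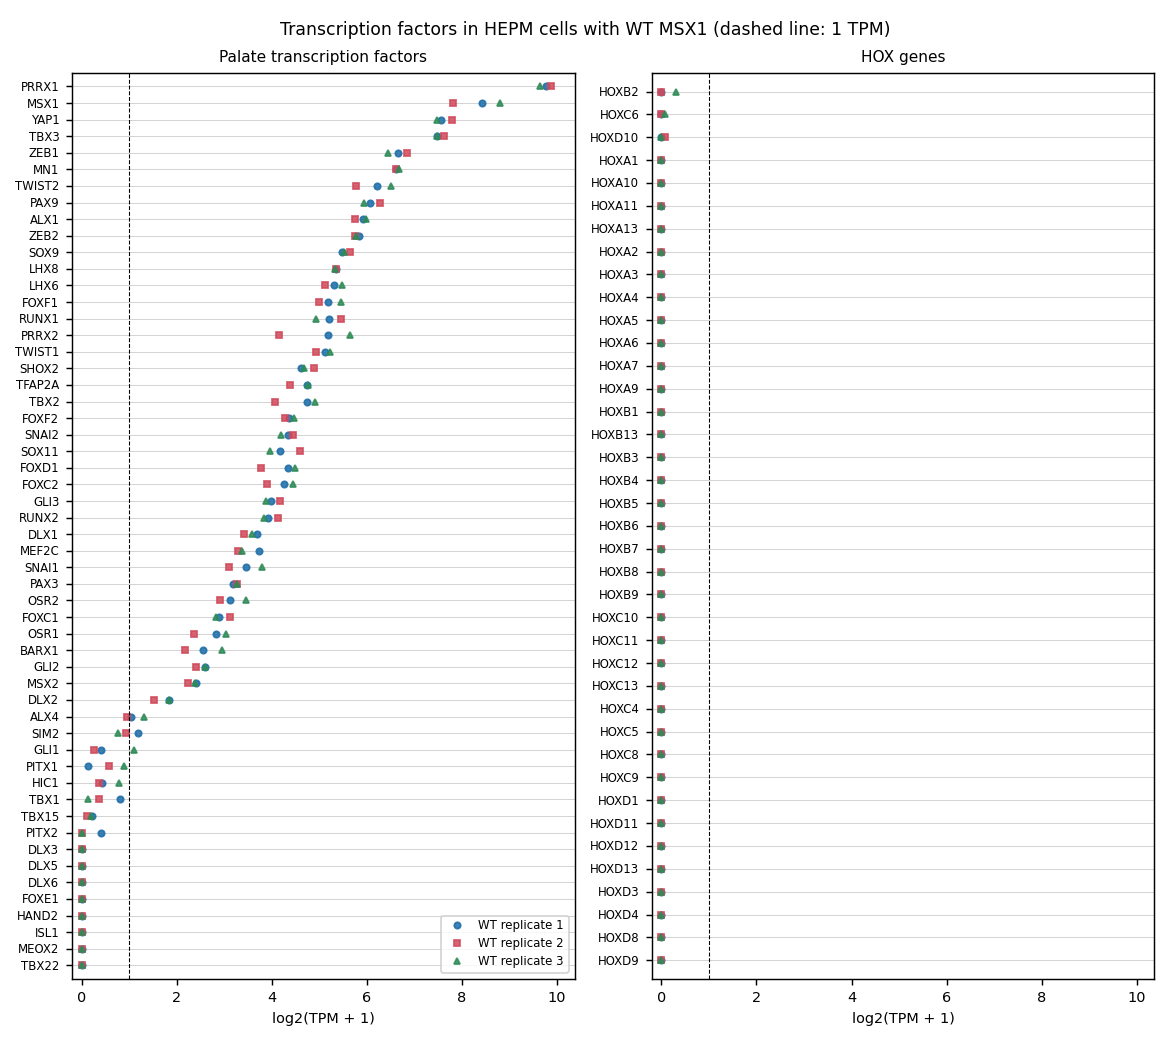
Levels as log2(TPM + 1) of palate transcription factors (left, a few not shown) and the 39 HOX genes (right), with 1 symbol per library and a dashed line at 1 TPM. Palate factors spread from PRRX1 at the top to genes listed at 0, whereas no HOX gene reaches the dashed line.

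Across all transcription factor lists, 241 of 352 genes were detected (243 without replicate 2), with a median of 29.4 TPM among them, and together they took 1.73% ± 0.0557 of the total. HMGA1 was the highest, and PRRX1, HMGA2, HIF1A and FOSL1 were also near the top. HMGA1 and HMGA2 encode architectural proteins that bind AT-rich DNA and are typical of embryonic and proliferating cells. HMGA1 was at 1599, 959 and 2111 TPM and HMGA2 at 542, 751 and 481 TPM. HMGA1 was higher in all 3 libraries, but by 2.95, 1.28 and 4.39 times, and replicate 2 was low for HMGA1 (transcript GC 61.3%) and high for HMGA2 (38.8%). HIF1A, the oxygen-regulated subunit of hypoxia-inducible factor, was at 514, 716 and 434 TPM.

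FOSL1, a FOS-family subunit of AP-1, was at 550, 384 and 655 TPM, above IER3 (138 ± 35.0 TPM), IER2 (61.8 ± 15.5 TPM), ATF3 (60.0 ± 17.0 TPM) and JUN (58.4 ± 15.8 TPM). AP-1 genes as a list had 13 of 16 detected, and each of these 5 was lowest in replicate 2. AHR, the aryl hydrocarbon receptor, was at 363 ± 65.9 TPM, and ATF4, the effector of the integrated stress response, at 258 ± 58.3 TPM. KLF4 and KLF6, zinc-finger factors, averaged 185 ± 6.41 and 182 ± 16.4 TPM and their order changed between libraries. All 11 genes of the TEAD, SRF and YAP list were detected, among them WWTR1 (138 ± 4.85 TPM), a paralog of YAP1, and TEAD1 (77.8 ± 15.7 TPM), a DNA-binding partner of both.

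Nuclear receptors had 26 of 34 detected, most of them below 50 TPM. RARG, the gamma receptor for retinoic acid, was the highest at 117, 72.3 and 136 TPM, and NR3C1, the glucocorticoid receptor, followed at 71.7 ± 11.0 TPM. NR2F2 and NR2F1, orphan receptors also called COUP-TF, were at 40.9 ± 6.82 and 40.4 ± 3.94 TPM, and which of them was higher differed between libraries.

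Matrix genes took 4.40% ± 0.276 of the total, and 145 of 192 were detected (148 without replicate 2). Their median among detected genes was 69.2 TPM, against 26.0 TPM over detected protein-coding genes and 22.2 TPM over all detected genes. Of these matrix genes 68 averaged at least 100 TPM and 11 at least 1000 TPM. Fibrillar collagens form the tensile fibres of connective tissue, and 7 of 11 were detected. COL1A2 was at 2229, 2245 and 2307 TPM and COL1A1 at 540, 553 and 582 TPM. Type I collagen is a trimer with more COL1A1 than COL1A2 chains, while the COL1A2 transcript level was 4.13, 4.06 and 3.96 times that of COL1A1. The transcripts of COL1A2 and COL1A1 have 41.7% and 61.1% GC, so their ratio is uncertain, though replicate 2 did not stand apart for either gene.

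COL3A1, which forms fibrils with type I collagen, was at 168, 211 and 166 TPM. COL5A2 (134 ± 5.95 TPM) and COL5A1 (58.7 ± 12.0 TPM) encode chains of type V collagen, which starts type I fibrils. COL5A3 (9.84 ± 2.69 TPM) and COL27A1 (4.41 ± 1.04 TPM) were lowest of the detected fibrillar genes. The order COL1A2, COL1A1, COL3A1, COL5A2, COL5A1, COL5A3, COL27A1 held in all 3 libraries. COL2A1 was listed at 0, and COL11A1, COL11A2 and COL24A1 lay under the detection level.

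Among 33 other collagens 16 were detected. COL6A3 was at 1949, 2369 and 1745 TPM, COL6A1 at 1130, 654 and 1397 TPM and COL6A2 at 1083, 636 and 1341 TPM. These encode the chains of type VI collagen, a beaded microfibril that surrounds cells. COL6A1 and COL6A2, which are neighbours on the same chromosome, moved together, with a ratio of 1.04, 1.03 and 1.04. COL6A3 moved the other way, so its ratio to COL6A1 was 1.72, 3.62 and 1.25, and replicate 2 was low for the transcripts of 63.5% and 66.4% GC (COL6A1 and COL6A2) and high for that of 53.2% GC (COL6A3), against the median of genes of like GC (-0.27). COL12A1, a fibril-associated collagen, averaged 268 ± 46.9 TPM. COL4A2 and COL4A1, the basement membrane chains that share a promoter, were at 169 ± 26.5 and 162 ± 14.4 TPM, and COL4A2 was the higher in replicates 1 and 3 only.

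**Figure D4:**
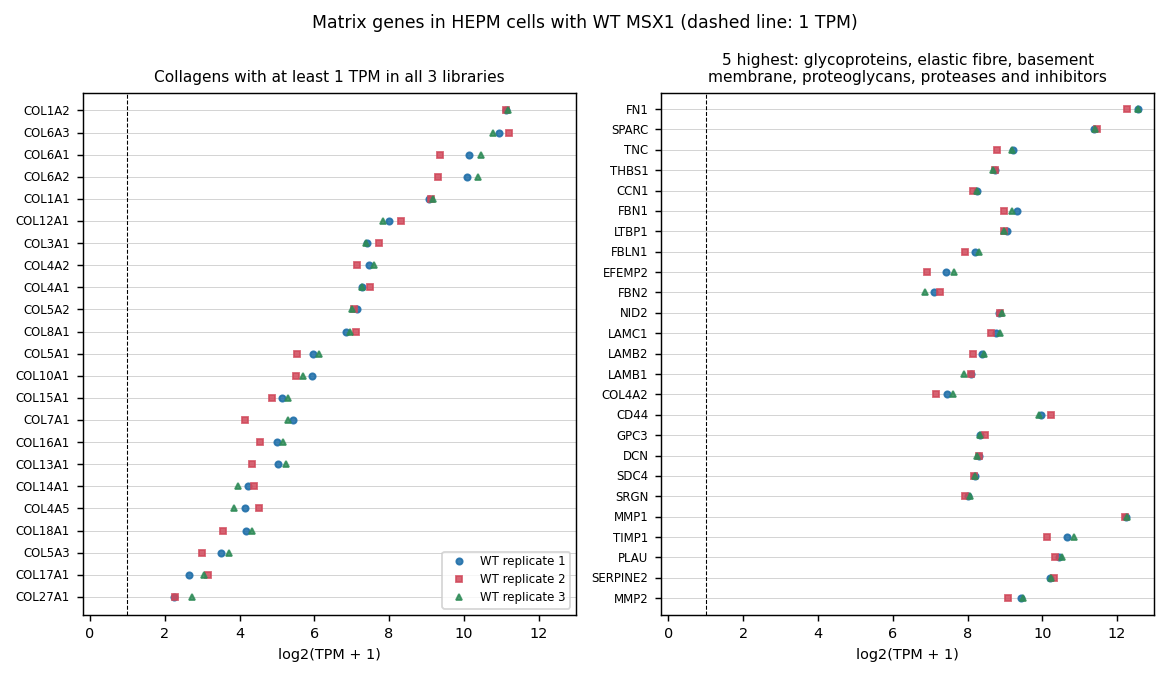
Levels as log2(TPM + 1) of the detected collagens (left) and of the 5 highest genes of each other matrix list (right), with 1 symbol per library and a dashed line at 1 TPM. COL1A2, SPARC, MMP1 and SERPINE2 have nearly coincident symbols, whereas COL6A1, COL6A2 and TIMP1 show replicate 2 to the left of the other libraries.

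Of the genes that process collagen, 22 of 23 were detected, and the median of all 23 was 205 TPM. SPARC, which binds collagen and accompanies its secretion, was the highest at 2673, 2817 and 2737 TPM. PPIB and P4HB, a prolyl isomerase and a subunit of prolyl 4-hydroxylase, averaged 916 ± 150 and 833 ± 160 TPM. LOXL3, a lysyl oxidase-like crosslinking enzyme needed for mouse palate, was at 375, 320 and 404 TPM, and CRTAP, part of the prolyl 3-hydroxylation complex, at 363 ± 21.1 TPM.

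Fibronectin led the glycoproteins, of which 19 of 23 were detected. The stretch upstream of its start is shown because it holds the cAMP response element (TGACGTCA, searched on both strands; it reads the same on each), in capitals.
FN1, chr2:215436219-215436276, minus strand: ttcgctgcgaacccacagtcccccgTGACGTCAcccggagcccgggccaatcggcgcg
The stretch comes from RefSeq on GRCh38.p14. The element was found in 614 of 27305 genes with a window, or 2.25%, and its presence says nothing of what binds in these cells. The FN1 transcript level exceeded that of COL1A2 in each library, by 2.21 to 2.73 times. TNC, tenascin C, was at 592, 440 and 586 TPM, THBS1, thrombospondin 1, at 424, 423 and 409 TPM, and CCN1, a matricellular target of YAP, at 298 ± 11.5 TPM.

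Elastic fibre genes had 15 of 16 detected. FBN1, the main microfibril protein, averaged 574 ± 70.3 TPM and LTBP1, which anchors latent TGF-beta to microfibrils, 512 ± 16.7 TPM. FBLN1, EFEMP2 and FBN2 followed at 286 ± 38.2, 163 ± 40.2 and 135 ± 18.8 TPM. Basement membrane genes had 16 of 17 detected. NID2, a nidogen that links laminin to collagen IV, was at 456, 468 and 486 TPM, and the laminin chains LAMC1, LAMB2 and LAMB1 averaged 432 ± 36.3, 319 ± 34.0 and 260 ± 18.3 TPM, in that order in each library.

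Of the hyaluronan and proteoglycan genes, 24 of 35 were detected, and CD44, the hyaluronan receptor, was highest at 1008, 1196 and 961 TPM. GPC3, a glypican that restrains growth, was at 322, 353 and 323 TPM. DCN, a small leucine-rich proteoglycan of collagen fibrils, was at 313, 317 and 307 TPM. SDC4, a syndecan of focal adhesions, averaged 292 ± 3.49 TPM and SRGN, serglycin, 256 ± 12.3 TPM. CD44, GPC3, DCN, SDC4 and SRGN each varied less between libraries than the median detected gene of at least 10 TPM. The median coefficient of variation of such genes was 15.8%. HAS2, the hyaluronan synthase of palatal mesenchyme, was at 15.4, 16.8 and 12.6 TPM, and was named after its value was seen.

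Proteases and their inhibitors had 29 of 37 detected. MMP1, the interstitial collagenase, was at 4809, 4719 and 4910 TPM and ranked 11 in every library. It exceeded COL1A1 by 8.63 ± 0.248 times and its inhibitor TIMP1 by 2.96, 4.24 and 2.65 times. TIMP1 was at 1623, 1113 and 1854 TPM, lowest in replicate 2. PLAU, the urokinase that activates plasminogen, and SERPINE2, a serpin that inhibits urokinase and thrombin, averaged 1394 ± 91.0 and 1218 ± 39.7 TPM. MMP2, a gelatinase, was at 695, 538 and 710 TPM.

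Receptors were detected for 151 of 225 genes (67.1%, and 69.8% without replicate 2), took 1.56% ± 0.0368 of the total and had a median of 37.4 TPM among detected genes. Integrins, which tie matrix to the cytoskeleton, had 16 of 25 detected. ITGB1, the beta chain shared by most of them, was at 1753, 2273 and 1553 TPM, the highest of the listed receptors. Its partner ITGA5, which forms the fibronectin receptor, was at 848, 615 and 971 TPM, and ITGA3, a laminin receptor chain, at 418, 352 and 482 TPM. ITGA5 was the higher of these alpha chains in each library, by 1.93 ± 0.159 times. ITGA2, a collagen receptor chain, was at 371, 432 and 314 TPM and ITGB5, a vitronectin receptor chain, at 140 ± 13.2 TPM. Cadherins were fewer, with 4 of 11 detected, and CDH11, the cadherin of mesenchyme and osteoblasts, was at 240, 179 and 251 TPM. It exceeded the neural cadherin CDH2, at 43.7 ± 1.96 TPM, by 3.96 to 6.04 times. CDH13 and CDH6 averaged 56.0 ± 2.58 and 40.6 ± 1.503 TPM.

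Of 53 receptor tyrosine kinases 25 were detected. PDGFRA, the receptor for PDGF-A and a gene whose loss clefts the palate in mice, was highest at 394, 463 and 358 TPM. It exceeded PDGFRB, at 79.1 ± 9.56 TPM, by 5.00, 6.66 and 4.03 times. AXL, the receptor of the ligand GAS6, averaged 226 ± 22.2 TPM and EGFR 138 ± 11.2 TPM. FGFR1 was at 214, 188 and 217 TPM. Its relative FGFR2, named after its value was seen, was at 0.09 TPM in replicate 1 and listed at 0 in the others.

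Ligands of these receptors were present too, with 22 of 32 growth factor genes detected. HGF, the ligand of MET, was at 415, 532 and 376 TPM and MET at 116, 133 and 99.5 TPM. Both were highest in replicate 2, and the ratio of HGF to MET was 3.79 ± 0.216. VEGFC and VEGFA, ligands of vascular and lymphatic endothelium, were at 311 ± 12.6 and 292 ± 42.8 TPM, with no fixed order between libraries. FGF5 was at 184, 241 and 176 TPM and FGF2 at 173, 267 and 131 TPM.

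Of the TGF-beta and BMP ligands 12 of 20 were detected and none averaged 100 TPM. TGFB1 was at 80.6, 66.6 and 100 TPM, INHBA, the activin A chain, at 65.6, 77.6 and 52.4 TPM, and BMP1, a procollagen protease despite its name, at 37.4 ± 10.6 TPM. GDF15 and GDF5, of the same family, were at 17.7 ± 8.67 and 14.1 ± 3.67 TPM. Of the list of antagonists, SMADs and targets 20 of 23 were detected, and the median of all 23 was 47.0 TPM. The 3 highest members of this list were secreted proteins that stood above every ligand of the pathway. FSTL1, a follistatin-like secreted protein, was at 1314, 1645 and 1283 TPM, FST, the activin-binding follistatin, at 1147, 1274 and 1116 TPM, and GREM1, an inhibitor of BMP ligands, at 875, 1001 and 788 TPM. The antagonists NOG (5.84 ± 0.770 TPM) and CHRD (0.283 TPM on average), named after their values were seen, were far lower. BMP4, the ligand that Msx1 sustains in mouse palate, was at 5.06, 4.11 and 3.38 TPM, and was named after its value was seen. The GREM1 level was 173 to 244 times that of BMP4.

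Receptors of the pathway had 13 of 16 detected. RGMB, a BMP coreceptor, averaged 181 ± 36.8 TPM, TGFBR2 171 ± 28.8 TPM, the coreceptor ENG 168 ± 47.7 TPM and ACVR1, a type I receptor, 72.0 ± 2.97 TPM. RGMB and TGFBR2 were highest in replicate 2 and ENG was lowest there, so the order of these 3 was not settled. TGFBR2, the type II receptor, was 9.43 ± 1.53 times as high as its partner TGFBR1.

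Of 23 genes in the list of WNT ligands, which includes RSPO genes, 6 were detected and 8 were listed at 0. The share detected among all protein-coding genes was 58.8%. WNT9A, at 1.29, 0.98 and 1.54 TPM, missed the detection level in replicate 2 alone. WNT16 was at 75.4, 78.5 and 74.0 TPM, WNT5A, the ligand of planar polarity signalling, at 48.9, 63.0 and 49.8 TPM, and WNT5B at 31.3, 14.4 and 30.6 TPM. The order of these ligands held in each library. Of 21 WNT receptors 13 were detected, led by the coreceptors RYK (88.1 ± 13.1 TPM) and PTK7 (66.0 ± 13.4 TPM) and the frizzleds FZD7 (45.8 ± 1.44 TPM), FZD4 (44.7 ± 5.93 TPM) and FZD6 (39.2 ± 3.57 TPM). Of the list of WNT antagonists and targets 12 of 21 were detected, and the median of all 21 was 3.06 TPM. The 3 highest members of this list that encode secreted proteins each stood above every WNT ligand. SFRP1, a soluble frizzled-related protein, was at 971, 1072 and 945 TPM, DKK3 at 530, 486 and 524 TPM and DKK1, which blocks the LRP coreceptors, at 299, 265 and 255 TPM. Other members that encode secreted proteins, named after their values were seen, were low. DKK2 was at 3.41 ± 0.537 TPM, FRZB at 3.06 ± 0.531 TPM, and SFRP4 and SFRP5 were listed at 0. CTNNB1, the beta-catenin gene, averaged 338 ± 8.25 TPM.

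Hedgehog genes were low throughout, with none above 20 TPM. Of the 16 genes 9 were detected, against 58.8% of all protein-coding genes. The transducer SMO was at 12.5 ± 1.15 TPM and the inhibitor SUFU at 12.4 ± 2.26 TPM. DISP1 and GAS1, which release and bind the ligand, were at 10.4 ± 0.800 and 6.19 ± 0.614 TPM. SHH, the ligand made by palatal epithelium, was at 0.02 TPM in replicate 3 and listed at 0 in the others. GLI1, a transcriptional target of the pathway, was at 0.33, 0.20 and 1.15 TPM. SHH was named after its value was seen. Of 15 Notch genes 8 were detected. RBPJ, the DNA-binding effector, averaged 195 ± 45.4 TPM, NOTCH2 106 ± 6.84 TPM and the ligand JAG1, which is expressed in palatal tissue, 23.0 ± 1.64 TPM.

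**Figure D5:**
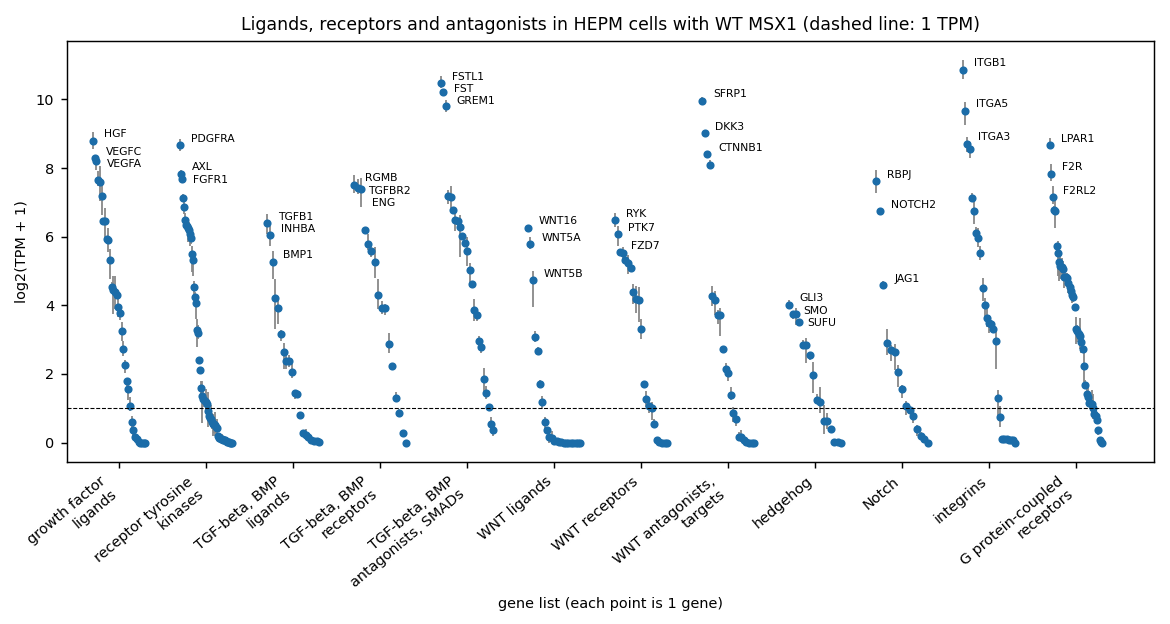
Level of each ligand, receptor and antagonist gene as log2(TPM + 1), with points for the mean of the 3 libraries and vertical lines from the lowest to the highest library; genes are ordered by level within a list and the dashed line marks 1 TPM. FSTL1, FST, GREM1 and SFRP1 rise above every TGF-beta, BMP and WNT ligand, and no hedgehog gene exceeds 20 TPM.

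The remaining receptors served cytokines, lipids and guidance cues. Of 36 cytokine and TNF receptors 30 were detected. TNFRSF11B, osteoprotegerin, a soluble decoy receptor for RANKL, was at 466, 566 and 433 TPM, and IL6ST, the signal chain of the IL-6 family, at 429, 588 and 327 TPM. IL7R was at 386, 413 and 359 TPM. IL7R is best known from lymphocytes, and the lymphocyte genes CD3E and PTPRC were at or near 0. Of 41 G protein-coupled receptors 31 were detected, led by LPAR1, a receptor for lysophosphatidic acid, at 379, 464 and 372 TPM and F2R, the thrombin receptor, at 208, 279 and 196 TPM. Guidance and adhesion receptors had 22 of 26 detected, with NRP1, a coreceptor of semaphorins and VEGF, at 675, 528 and 582 TPM, THY1 at 450 ± 97.8 TPM and the tetraspanin CD151 at 425 ± 101 TPM.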

How the data were processed

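Per the labels' protocols, poly(A) RNA of HEPM cells was sequenced from libraries of a stranded Illumina mRNA kit. The values are TPM of each gene in each library, as deposited by the authors. The submitters' processing notes name RSEM; its version, the aligner, genome build, annotation and strand setting are not stated in any source used. Antisense and overlapping genes and near-identical copies are therefore uncertain. TPM keep no depth, so no counting interval was computed. The 3 WT columns were matched to samples by library name, and the other columns were not used.

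Means, SDs, ranks, ratios and counts of genes at or above 1 TPM in all 3 libraries were computed with pandas 2.3.3 and numpy 2.4.6 in Python 3.11.15, and the spread on the log2(TPM + 1) scale (pseudocount 1). GENCODE 29 gave transcript GC content and coordinates on GRCh38 (58228 of 63241 identifiers matched), and RefSeq (GRCh38.p14) gave promoter windows. The GC grouping was tested on simulated data. Of 1155 listed names in 52 lists, 1151 matched, and lists overlap. The gene lists and the libraries described were chosen with earlier results of these data known. Genes named are the mesenchymal markers, MSX1 and PRMT1, the 15 highest, up to 5 highest of each list, detected palate factors, fibrillar collagens and HOX genes, the 20 highest factors and receptors, defining markers of other cell types and the 10 with the widest spread among genes with a symbol and a mean of at least 10 TPM. Genes outside this rule are said to have been named after their values were seen; the other listed genes given at or near 0, and the genes given as the partner in a ratio, were also chosen so. The alternatives tried were another minimum level, libraries left out, rescaling without mitochondrially encoded genes, median-ratio factors and another pseudocount. Some genes covered by this rule are not reported here but remain in the counts.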

Additional observations from a re-analysis of the deposited data

How the results depend on the processing

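The count of detected genes was 10159 with a minimum of 5 TPM, 14169 with 0.5 TPM, 13943 by the mean of the libraries and 13118 after rescaling without mitochondrially encoded genes, and 13186 to 13350 with 1 library left out. Over the same settings the transcription factor count stayed between 208 and 250, the receptor count between 133 and 164 and the matrix count between 130 and 154, and no HOX gene was detected under any of them. The share held by the 100 highest genes was 22.9% without mitochondrially encoded genes, 23.8% without these and ribosomal protein genes and 27.8% over genes with a symbol, and 27.4% to 27.5% with 1 library left out. Of 277 named genes, leaving out a library moved the mean by more than 1.5 times for ADCY7 and WASH5P (without replicate 1, where WASH5P falls to 0), for ASDURF, HAPLN1 and MT-ND4L (without replicate 2) and for BOK, BOLA2, BZW1P2, H2AC18 and STK19B (without replicate 3). Without mitochondrially encoded genes 71 of 270 levels rose by more than their SD, by at most 1.10 times, and median-ratio factors kept all 277 within it. The same 10 genes had the widest spread with a pseudocount of 0.1. No paired analysis was possible because 1 group was described and nothing was tested. With unknown depth, levels near 1 TPM are the least certain.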

Other observations

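Of 59 listed genes linked to cleft palate in people or mice, 48 were detected, against 58.8% of all protein-coding genes. The median of the list was 33.3 TPM. UBB, a polyubiquitin gene, was at 1229, 924 and 1377 TPM, FLNA, an actin crosslinker, at 740, 455 and 812 TPM, and MSX1, GPC3 and FGFR1 followed. The level of MSX1 includes any transcript from the plasmid. All 26 cell cycle genes were detected. CCND1, cyclin D1, was at 646, 672 and 638 TPM and RRM2, a ribonucleotide reductase subunit, at 259, 423 and 247 TPM. CDKN1A, the p53-induced inhibitor, was at 318, 222 and 378 TPM. RRM2 was thus highest and CDKN1A lowest in replicate 2, the library that stood apart with transcript GC content. A difference in cell cycle between libraries was not tested. All 16 stress genes were detected, led by the chaperones HSP90AA1 (1182 ± 71.6 TPM), HSP90AB1 (993 ± 106 TPM) and HSPA5 (636 ± 8.52 TPM). Of 18 retinoid genes 10 were detected, with the binding protein CRABP2 highest at 199, 138 and 225 TPM.

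Of 9 protein arginine methyltransferase genes 8 were detected and PRMT8 was listed at 0. PRMT5, which makes symmetric dimethylarginine, was at 117, 104 and 120 TPM, and PRMT1, the main enzyme of asymmetric dimethylation and the enzyme in the title of the study, at 119, 75.7 and 125 TPM. Their ratio, PRMT5 over PRMT1, was 0.985, 1.38 and 0.958, so the order of these genes depended on the library. PRMT2, CARM1 and PRMT7 averaged 85.9 ± 12.1, 56.9 ± 17.3 and 31.3 ± 4.32 TPM.

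Among genes with a symbol and a mean of at least 10 TPM, those with the widest spread between libraries on the log2(TPM + 1) scale were mostly pseudogenes, members of gene copies and read-through transcripts. SRP9P1 was at 128 and 125 TPM in replicates 1 and 3 and listed at 0 in replicate 2, and WASH5P (the record ENSG00000282458 of this symbol) was at 66.4 TPM in replicate 1 and listed at 0 in the others. H2AC18, BZW1P2, BOLA2, STK19B, RPL36A-HNRNPH2, ASDURF, ADCY7 and BOK make up the rest of the 10. ADCY7, a protein-coding adenylate cyclase gene, was at 83.4, 4.40 and 6.69 TPM, and BOK, a BCL2 family gene, at 8.67, 5.11 and 49.4 TPM.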
